A study of Mus musculus with 6 samples.

Results

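The genes described here encode the proteins that carry out and steer pre-mRNA splicing in the cell nucleus. They are the 66 rows, of 13582 in the expression table, whose gene symbol begins with Srsf and a digit, Hnrnp, Sf3a, Sf3b, Snrp or Prpf, or is Ddx23. By symbol they fall into 11 SR proteins, 20 hnRNPs, 9 subunits of SF3a and SF3b, 12 Snrp proteins, and 14 Prpf factors including Ddx23. The C57BL/6 mice had received 1 intraperitoneal injection, of vehicle (3 mice) or of resveratrol, a plant polyphenol, at 10 mg/kg (3 mice). RNA was taken from the right cortex 2 weeks later, when they were 10 weeks old. No altered allele or other agent is named for either group and no sex is stated. The labels of the vehicle group also carry a dose of 10 mg/kg, but these mice were taken to have received the vehicle alone. The study looks at cortical expression in a period when earlier resveratrol is thought to make the brain tolerate ischemia, and no ischemia is named for these mice.

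Splicing removes introns in a spliceosome built from small nuclear ribonucleoproteins (snRNPs) named U1, U2, U4, U5 and U6. Snrp proteins form the Sm ring and other parts of these particles, and SF3a and SF3b anchor U2 at the branch point of the intron. Several Prpf factors assemble and remodel the U4/U6.U5 particle, and others act elsewhere in splicing. SR proteins bind exons and usually promote their inclusion, whereas hnRNPs bind nascent RNA widely and often repress nearby splice sites. Neurons use an unusually large range of alternative exons, and many SR and hnRNP genes regulate their own transcripts by splicing in exons that trigger decay. The values here are gene totals in FPKM (fragments scaled to transcript length and to the mapped fragments of the library, computed by the authors), so they show neither isoforms nor splicing itself.

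The listed FPKM summed to between 351731 and 397876 per library, and the sequencing depth is not known, since the table holds no counts. The vehicle libraries differed among themselves with transcript length, and vehicle 1 and 2 differed from vehicle 3 in sign. Over 13047 genes with a known transcript length, Spearman's correlation of a gene's deviation from its own mean with that length was 0.240, 0.448 and -0.472 in vehicle 1, 2 and 3. Markers of cortical excitatory neurons (6 of 6 listed) summed to 276 to 351 FPKM after vehicle, and 314 to 333 FPKM after resveratrol, so the labelled tissue carried its defining genes. Marker sums overlapped between the groups for interneurons, astrocytes, microglia, endothelium, choroid plexus, striatum and red blood cells (2 of 5 listed, Hba-a1 and Alas2). Those of ependymal cells were lower in resveratrol (9.51 to 10.2 FPKM against 13.6 to 14.4 FPKM), as were those of oligodendrocytes by a margin at the edge of the ranges (1184 to 1391 FPKM against 1391 to 1479 FPKM). Choroid plexus markers (5 of 6 listed, Otx2 not among them) reached 453 FPKM in resveratrol 3, against 15.5 to 141 FPKM elsewhere. Striatal markers varied widely within both groups, at 433, 244 and 168 FPKM in vehicle 1, 2 and 3 and 146, 311 and 193 FPKM in resveratrol 1, 2 and 3. In vehicle 1 they exceeded the cortical excitatory markers of that library (276 FPKM). The part of these differences in the results was not tested, and in bulk tissue fewer cells of a type and less RNA per cell cannot be told apart.

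All 66 genes were detected in every library and passed the filter on low values (a mean of 0.5 FPKM). Their mean level over the 6 libraries ran from 5.23 FPKM (Sf3a2) to 386 FPKM (Snrpn), with a median of 26.8 FPKM against 10.2 FPKM for all 13574 genes tested. Snrpn alone supplied between 12.7% and 15.1% of the summed FPKM of the 66 genes. Behind it stood the hnRNPs Hnrnpk (148 FPKM) and Hnrnpu (139 FPKM), the SR protein Srsf5 (113 FPKM) and the Sm protein Snrpd2 (86.3 FPKM). At the low end were Prpf4 (5.31 FPKM), Sf3b4 (5.85 FPKM), Prpf3 (6.39 FPKM), Hnrnph3 (7.05 FPKM) and Srsf12 (7.78 FPKM). By class, the median level was 38.7 FPKM for hnRNPs, 35.3 FPKM for SR proteins, 32.6 FPKM for Snrp proteins, 25.0 FPKM for SF3a and SF3b, and 18.8 FPKM for Prpf factors with Ddx23.

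**Figure D1:**
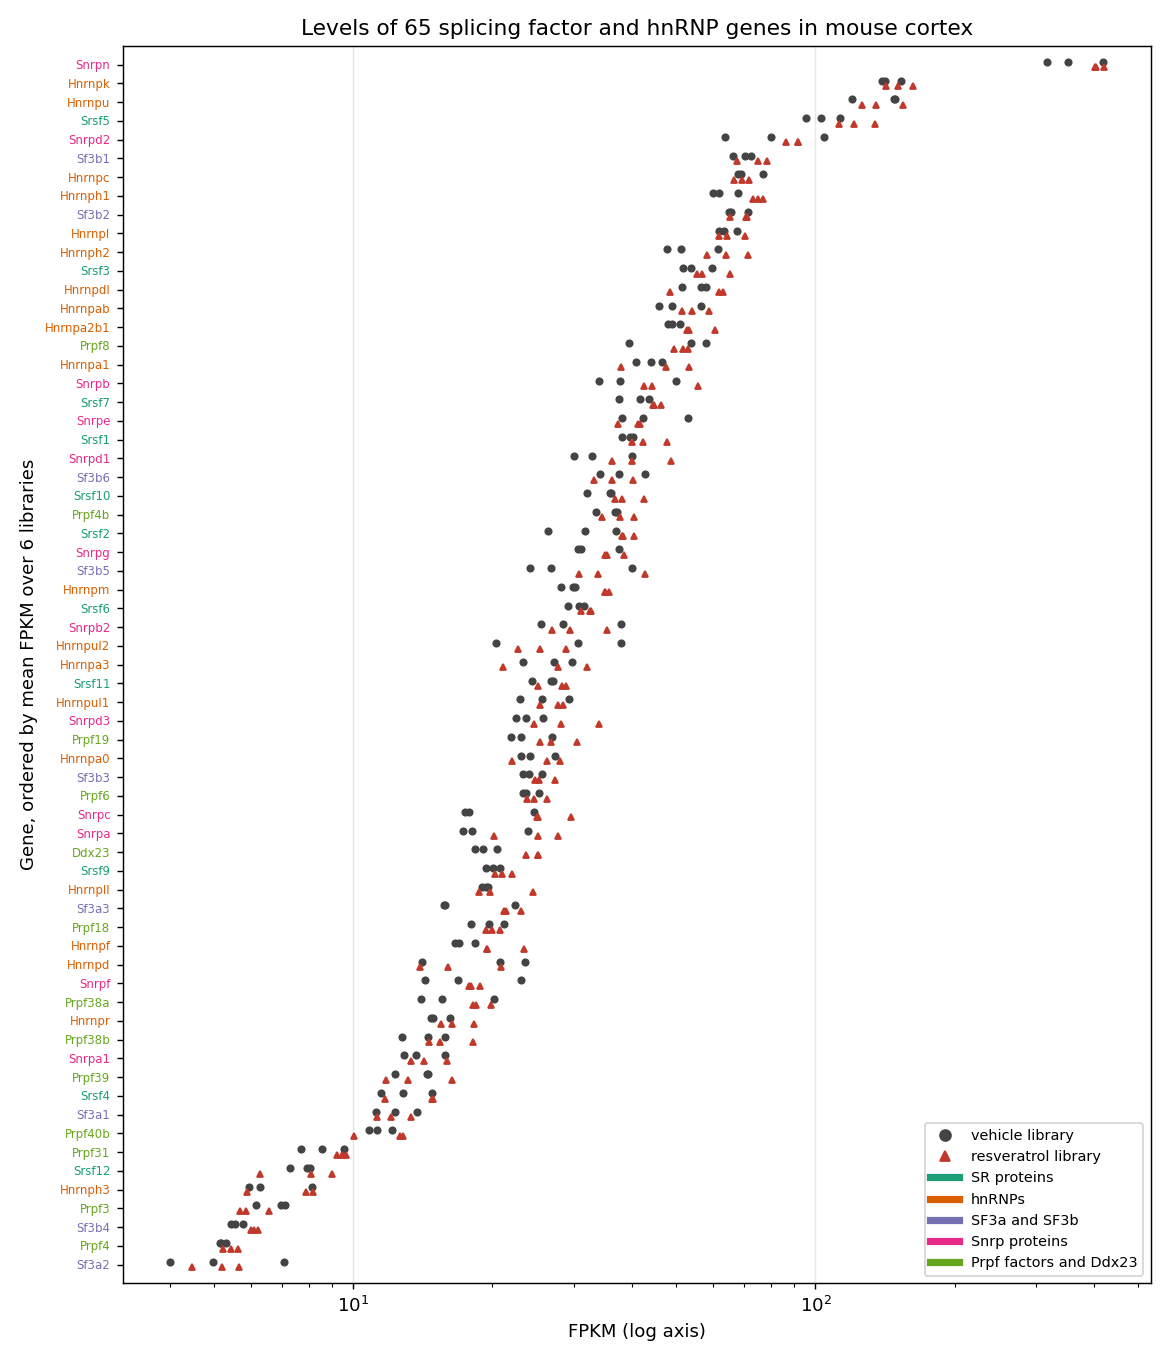
FPKM (log axis) of 65 of the 66 genes in the 3 vehicle libraries (circles) and the 3 resveratrol libraries (triangles), ordered by mean level, with gene names coloured by class. Snrpn stands alone at the top at 317 to 421 FPKM, and for nearly every gene the libraries of both groups lie close together beside the spread between genes.

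Resveratrol was compared with vehicle to ask which of these genes differ 2 weeks after the injection. Of the 66 genes 0 passed the limma test at an adjusted p of 0.05 over all genes tested, where 0.00737% of all genes passed, and the smallest adjusted p of any member was 0.987. The table nevertheless leaned to one side: 54 of the 66 genes (81.8%) had a log2 fold change above 0, beside 56.1% of all genes tested. Their median log2 fold change was 0.08, beside 0.02 over all genes. The summed FPKM of the 66 genes overlapped between the groups, at 2502 to 2766 in vehicle and 2746 to 2961 in resveratrol. Their share of each library's summed FPKM was 0.703% to 0.714% in vehicle and 0.690% (resveratrol 3) to 0.752% in resveratrol. The changes were small, and the widest was a log2 fold change of 0.42 (1.34-fold) in Snrpc. At an unadjusted limma p under 0.05 there were 6 genes higher in resveratrol (Ddx23, Snrpc, Hnrnpm, Hnrnph1, Srsf2 and Hnrnpf), or 9.09% of the members, where 2.42% of all genes passed in either direction and 1.64% were higher. There were 0 lower, where 0.788% of all genes were. In 10 of the 66 genes (15.2%) the lowest resveratrol library exceeded the highest vehicle library, a share of 4.28% among all genes, and the reverse held in 0, where the share was 2%. The first of these counts moved with single libraries: 20 members (30.3%, beside 17.35% of all genes) had an unadjusted p under 0.05 without vehicle 3. Without vehicle 1 it was 1 member (1.52%, beside 1.01%), and without resveratrol 2 it was 2 members (3.03%, beside 1.85%). Without vehicle 2 it was 1 member (1.52%), below the 2.44% of all genes. The count also moved with normalization. Centring each library on its median left 3 members (4.55%, beside 2.08% of all genes), namely Ddx23, Snrpc and Hnrnpm. Quantile normalization left 5 (7.58%, beside 2.23%). Other alternatives raised the count, to 9 (13.64%, beside 3.499% of all genes) with a correction for length and GC content. With a replicate block it was 10 (15.15%, beside 4.752%). With array weights, described below, it was 33 (50%, beside 47.29%).

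**Figure D2:**
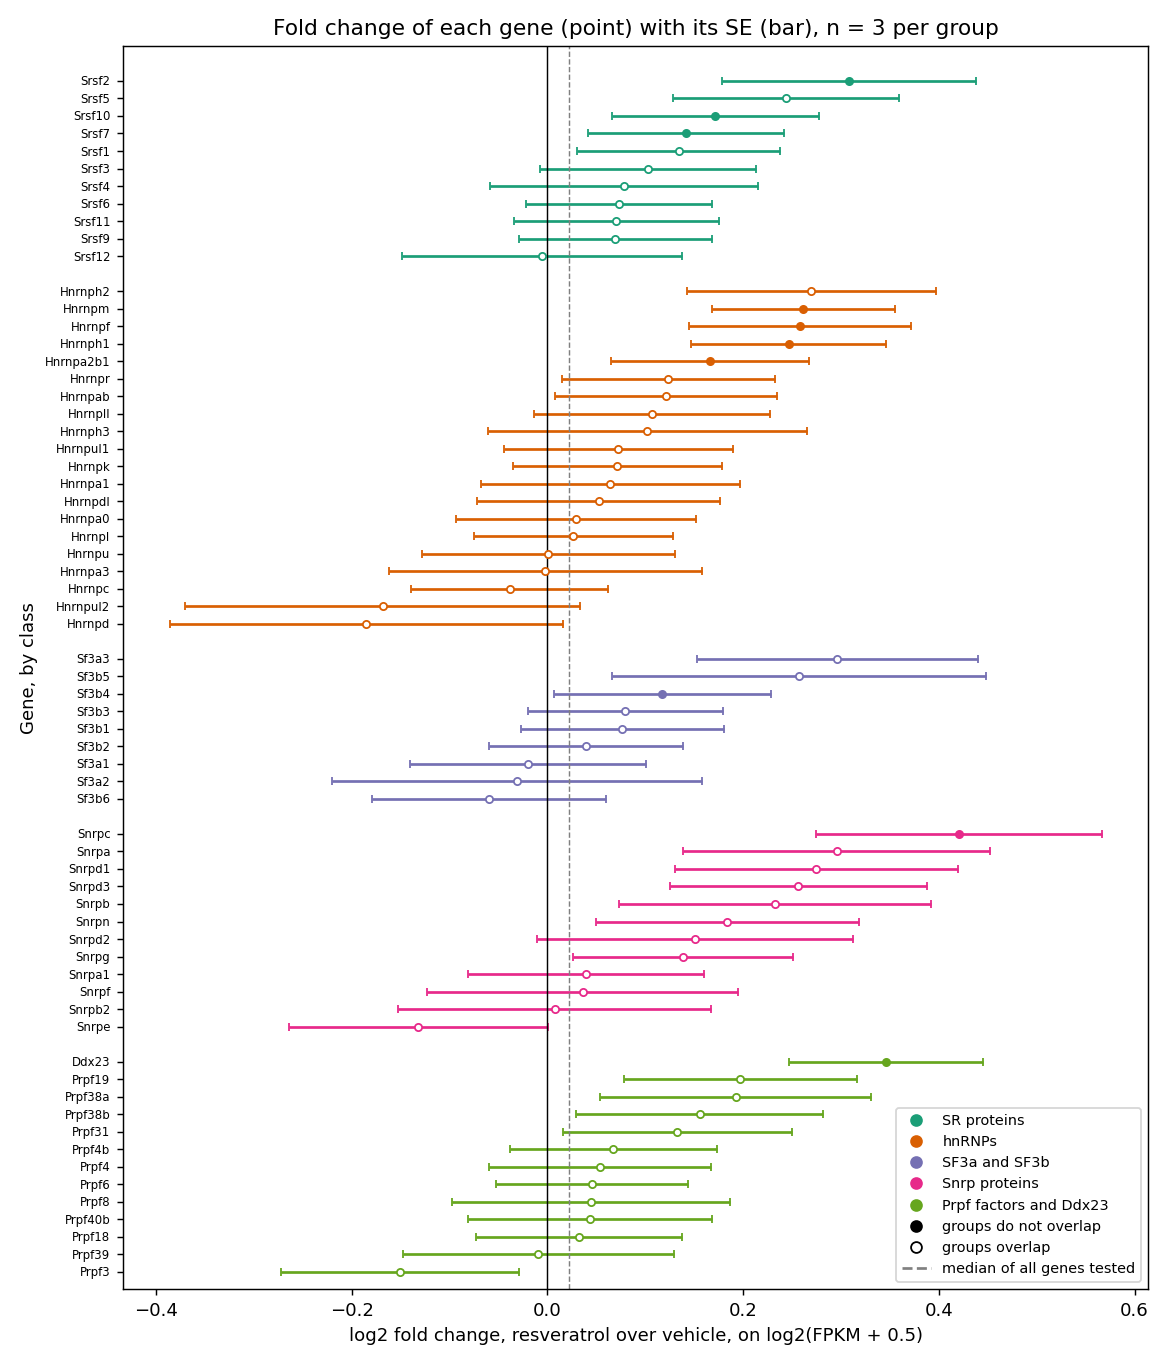
Log2 fold change of resveratrol over vehicle for 65 of the 66 genes on the log2(FPKM + 0.5) scale (points) with its SE (bars), 3 libraries per group, grouped by class; filled points mark genes whose groups do not overlap and the dashed line the median of all genes tested (0.02). Most points lie right of 0, and all 10 filled points do.

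A q-value under 0.05 was held by 0 of the 66 genes in the authors' deposited table, where 0.744% of its rows did. The p-value in the authors' deposited table was under 0.05 for 3 of the 66 genes, a lower share than the 5.98% of all its rows. These were Snrpc (0.0141), Ddx23 (0.0182) and Srsf2 (0.0378). The call of 0 genes by limma held under every alternative but one. With array weights, which let each library count by its own estimated precision, 26 of the 66 (39.4%) passed, beside 36.3% of all genes tested. That fit gave weights of 5.02 to vehicle 1 and 9.20 to resveratrol 2 against 0.227 to 0.556 for the other 4 libraries, and limma warned that the weights had not converged. With vehicle 1 and 2 left out, 44 of the 66 genes were above 0 (66.7%, beside 55.1% of all genes), with the lone vehicle library assumed to vary like the resveratrol ones.

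The 10 genes whose groups did not overlap came from every class. Among them are Ddx23, a helicase that displaces U1 from the start of the intron, and Snrpc, a U1 protein that steadies the pairing with that site. The SR proteins Srsf2, Srsf7 and Srsf10, the hnRNPs Hnrnpm, Hnrnph1, Hnrnpf and Hnrnpa2b1, and Sf3b4, which sits beside the branch point, complete the set. The gap between the groups was wide for some and narrow for others. In Hnrnpm the lowest resveratrol library (35.0 FPKM) stood clear of the highest vehicle library (30.2 FPKM), whereas in Snrpc these were 25.0 and 24.5 FPKM. Vehicle 3 was the highest vehicle library in 9 of these genes, the exception being Srsf10. Leaving out a library can only keep or add such genes. Without vehicle 3 the groups did not overlap in 30 of the 66 genes with resveratrol higher (45.5%, beside 21.4% of all genes). Without resveratrol 3 it was 24 (36.4%, beside 8.05%), and without vehicle 1 it was 15 (22.7%, beside 6.19%). Without resveratrol 1 it was 13 (19.7%, beside 10.9%). It was 11 (16.7%) without vehicle 2 (9.07% of all genes) or resveratrol 2 (7.63%). With resveratrol lower it was 3 without vehicle 3 (15.8% of all genes). It was 1 without vehicle 2 (5.61% of all genes), resveratrol 1 (6.23%) or resveratrol 2 (3.88%). Without vehicle 1 (3.08% of all genes) or resveratrol 3 (4.38%) it was 0.

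**Figure D3:**
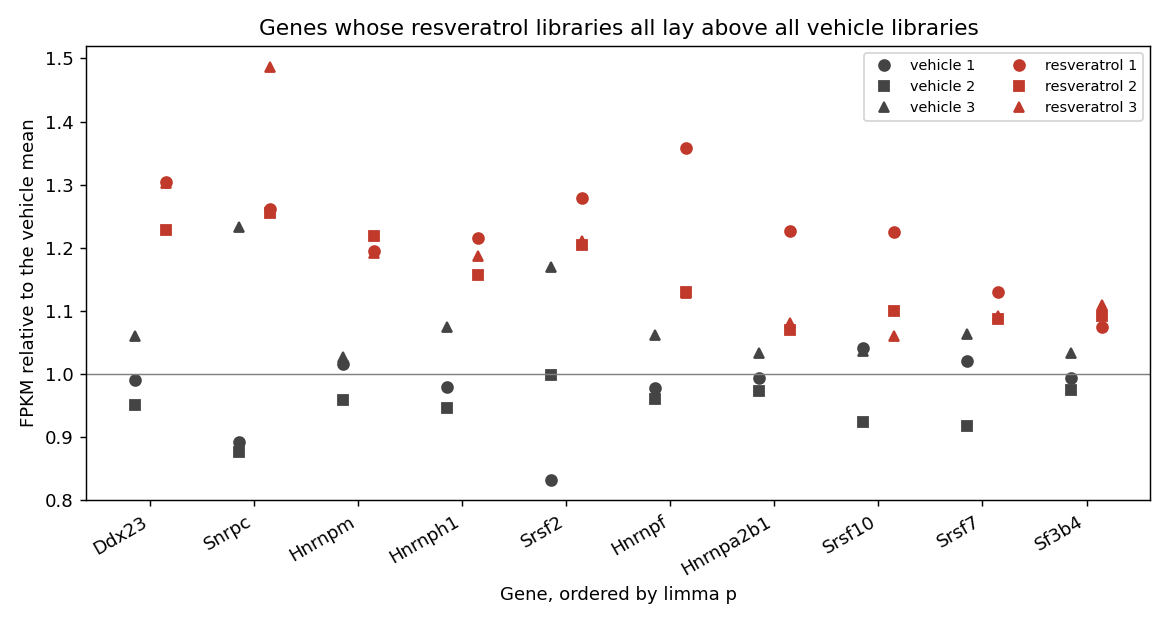
FPKM relative to the vehicle mean in each library for the 10 genes whose groups do not overlap, in order of limma p; marker shapes give the replicate number and colours the group. Vehicle 3 comes closest to the resveratrol libraries in 9 of the 10 genes, and in Hnrnpf, Hnrnpa2b1 and Srsf10 resveratrol 1 lies clearly above the other resveratrol libraries.

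Of the 6 genes with an unadjusted p under 0.05, the start regions of 3 with a single listed start site are shown, so that the letters the motif counts rest on can be read. Each is the 250 bases before the start on the gene's own strand, from RefSeq on GRCm38.p6, for Srsf2 (chr11:116853095-116853344, minus strand), Snrpc (chr17:27839837-27840086, plus strand) and Hnrnpm (chr17:33685459-33685708, minus strand). The RefSeq start of Srsf2 is at the edge of the GENCODE gene span, whereas those of Snrpc and Hnrnpm lie inside the spans, which begin further upstream. Capitals mark matches, on either strand, to the letters CCAAT (the CCAAT box), CCGGAAG (the core bound by ETS factors), GGGCGG (the GC box of SP1), TGACGT (the core of the cyclic AMP element), GCATGCG (the core bound by NRF1) and TATAAA (the TATA box).
Srsf2: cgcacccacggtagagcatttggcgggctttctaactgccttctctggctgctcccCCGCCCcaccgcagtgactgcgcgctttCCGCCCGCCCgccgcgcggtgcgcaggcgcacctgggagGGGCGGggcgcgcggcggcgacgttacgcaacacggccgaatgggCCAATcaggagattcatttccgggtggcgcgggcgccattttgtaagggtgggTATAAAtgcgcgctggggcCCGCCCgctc
Snrpc: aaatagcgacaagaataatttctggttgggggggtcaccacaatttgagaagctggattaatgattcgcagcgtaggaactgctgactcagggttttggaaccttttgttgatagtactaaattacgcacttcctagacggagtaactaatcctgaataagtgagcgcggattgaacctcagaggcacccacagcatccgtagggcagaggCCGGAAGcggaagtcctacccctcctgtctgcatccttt
Hnrnpm: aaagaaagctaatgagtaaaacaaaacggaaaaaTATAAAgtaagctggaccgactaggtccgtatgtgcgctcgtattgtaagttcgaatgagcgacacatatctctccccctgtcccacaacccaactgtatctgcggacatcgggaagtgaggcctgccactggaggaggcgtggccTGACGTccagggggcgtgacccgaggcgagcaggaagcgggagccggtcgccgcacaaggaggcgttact
The Srsf2 window was 69.6% G and C, with 5 GC boxes (2 of them overlapping), a CCAAT box starting 82 bases before the start and a TATA box at 29 bases. Snrpc had 48.4% G and C and a single ETS core at 39 bases, and Hnrnpm had 55.2%, a cyclic AMP core at 70 bases and a TATA match at 216 bases.

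A promoter window was listed for 57 of the 66 genes, taking the first start site of each. The GC box was found in 66.7% of them, beside 59.6% of all tested genes with a window (10250). By class it ran from 5 of 10 Snrp genes to 10 of the 11 SR protein genes. The CCAAT box was found in 47.4% (36.1% of tested genes), from 3 of 11 SR protein genes to 12 of 18 hnRNP genes. An ETS core was found in 29.8% (13.02% of tested genes). It ran from 2 of 18 hnRNP genes to 6 of the 7 SF3a and SF3b genes with a window. The cyclic AMP core was found in 19.3% (10.4%), the NRF1 core in 5.26% (5.51%) and the TATA box in 8.77% (6.20%). A match describes these letters only and does not show that a factor binds.

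SR proteins, which carry an arginine and serine rich tail that is phosphorylated as they shuttle, had fold changes on one side of 0 in all but 1 gene. Their fold changes lay between -0.01 and 0.31, 10 of 11 were above 0 and the median was 0.10, with 0 genes past the limma test. Their summed level was 401, 386 and 422 FPKM in vehicle 1, 2 and 3 and 481, 446 and 426 FPKM in resveratrol 1, 2 and 3. The sums of the groups did not overlap, with vehicle 3 just below resveratrol 3. As a share of each library's summed FPKM they did overlap, at 0.1072% to 0.1104% for vehicle and 0.107% to 0.122% for resveratrol, with resveratrol 3 the lowest. The summed FPKM of the whole table was 351731 to 393451 in vehicle and 380486 to 397876 in resveratrol. Prpf factors with Ddx23 also lay apart in their sums (268 to 276 FPKM for vehicle, 281 to 293 FPKM for resveratrol) but overlapped in their shares. The sums overlapped for hnRNPs (934 to 957 FPKM against 945 to 1072 FPKM) and Snrp proteins (629 to 852 FPKM against 787 to 830 FPKM). Those of SF3a and SF3b overlapped as well (262 to 287 FPKM against 284 to 288 FPKM).

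Srsf2, a protein of nuclear speckles that binds exonic enhancers, had 26.4, 31.6 and 37.1 FPKM after vehicle, and 40.5, 38.1 and 38.4 FPKM after resveratrol. The vehicle libraries were spread out, with vehicle 1 the lowest and vehicle 3 just under the resveratrol libraries. The log2 fold change was 0.31 ± 0.13 (SE, n = 3 each). It was 0.07 with vehicle 1 and 2 left out. Of the exon bases of Srsf2 (chromosome 11, 116849901 to 116853094), 25.3% are also covered by Mfsd11 or Mettl23 on the opposite strand, and whether counting used strand is not given in the sources used here. Srsf5, the most abundant SR transcript, first found in rat as a gene induced by insulin, had 103, 95.3 and 113 FPKM after vehicle, and 135, 121 and 113 FPKM after resveratrol (a log2 fold change of 0.24 ± 0.12). Only resveratrol 3 reached into the vehicle range. Srsf7, which has a zinc knuckle beside its RNA-binding domain, had 41.8, 37.6 and 43.5 FPKM against 46.3, 44.5 and 44.7 FPKM, and the groups were separated by a narrow margin. Srsf10, which turns into a general repressor of splicing when dephosphorylated, had 36.2, 32.0 and 35.9 FPKM against 42.5, 38.2 and 36.8 FPKM, again without overlap.

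Srsf1, the founding member of the family, had 39.8, 38.2 and 40.4 FPKM after vehicle, and 47.8, 42.4 and 40.1 FPKM after resveratrol. Its close relative Srsf9 had 20.8, 20.1 and 19.4 FPKM against 22.1, 21.0 and 20.2 FPKM. Both overlapped between groups and were highest in resveratrol 1. Srsf3, the smallest SR protein, had 53.7, 51.7 and 59.8 FPKM against 65.4, 56.7 and 55.5 FPKM, with vehicle 3 above 2 of the resveratrol libraries. Srsf12, the least abundant, had 7.93, 7.27 and 8.06 FPKM after vehicle, and 9.001, 8.10 and 6.29 FPKM after resveratrol and was the sole SR gene below 0 (-0.01 ± 0.14). The remaining genes, Srsf4, Srsf6 and Srsf11, had log2 fold changes between 0.07 and 0.08. In 9 of the 11 SR genes resveratrol 1 was the highest library.

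Of the 20 hnRNPs, which coat nascent transcripts, 16 were above 0, the median was 0.07, the range was -0.19 to 0.27, and 0 passed the limma test. Hnrnpm, a protein that holds splice sites in check and binds GU-rich RNA, had 29.8, 28.2 and 30.2 FPKM after vehicle, and 35.1, 35.8 and 35.0 FPKM after resveratrol (a log2 fold change of 0.26 ± 0.09, SE, n = 3 each). The SD within groups was 1.07 FPKM after vehicle, and 0.426 FPKM after resveratrol, and its fold change stayed between 0.22 and 0.28 over all alternatives. In the annotation (chromosome 17, 33646233 to 33686860) 14.7% of its exon bases are shared with the neighbouring gene March2 on the same strand.

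The G-run binding proteins Hnrnph1, Hnrnph2 and Hnrnpf are close relatives, and each had a log2 fold change above 0. Hnrnph1 had 62.0, 59.9 and 68.0 FPKM after vehicle, and 76.9, 73.2 and 75.1 FPKM after resveratrol (a log2 fold change of 0.25 ± 0.10). Its groups were clearly separated, and its fold change was 0.14 with vehicle 1 and 2 left out. Hnrnph2, its X-linked paralog, had 51.3, 47.8 and 61.6 FPKM against 71.3, 64.0 and 58.2 FPKM, so that vehicle 3 exceeded resveratrol 3. Hnrnpf had 16.9, 16.6 and 18.3 FPKM against 23.4, 19.5 and 19.5 FPKM (0.26 ± 0.11), where resveratrol 1 was well above the other two. Of the 50-base words of Hnrnpf transcripts 36.8% also occur in other genes, and its value is uncertain to that extent. Hnrnph3, a shorter relative, was 0.10 ± 0.16.

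Hnrnpa2b1, which binds and exports RNA to dendrites and guides microRNA processing, had 49.0, 48.0 and 50.9 FPKM after vehicle, and 60.5, 52.7 and 53.3 FPKM after resveratrol (a log2 fold change of 0.17 ± 0.10). The groups did not overlap, and resveratrol 1 was the highest. Hnrnpa1, the best known splicing repressor of the class, had 44.1, 46.4 and 41.0 FPKM against 53.2, 47.4 and 38.0 FPKM, with resveratrol 3 lowest and resveratrol 1 highest of all libraries. It shares 28.2% of its 50-base words with 19 other genes, and Hnrnpa3 27.1% with 43, so both are uncertain.

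The 2 most abundant hnRNPs overlapped between the groups. Hnrnpk, which binds C-rich RNA and DNA, had 141, 139 and 153 FPKM after vehicle, and 162, 151 and 142 FPKM after resveratrol. Hnrnpu, a scaffold of chromatin and nascent RNA, had 148, 149 and 120 FPKM against 155, 135 and 126 FPKM, with vehicle 3 the lowest. Hnrnpl, which binds CA repeats, had 61.8, 67.8 and 63.5 FPKM against 61.9, 70.5 and 64.4 FPKM. Its paralog Hnrnpll, studied mainly in lymphocytes, had 19.4, 19.6 and 18.9 FPKM against 24.5, 18.7 and 19.7 FPKM. Hnrnpd, which binds AU-rich elements and speeds mRNA decay, was the lowest of the class at -0.19 ± 0.20, with 20.8, 23.6 and 14.1 FPKM after vehicle, and 20.8, 16.0 and 13.9 FPKM after resveratrol. Its vehicle libraries alone spanned nearly the whole range, and the sign turned to 0.24 with vehicle 1 and 2 left out. Hnrnpr (0.12), Hnrnpab (0.12), Hnrnpul1 (0.07), Hnrnpdl (0.05), Hnrnpa0 (0.03), Hnrnpa3 (-0.0020), Hnrnpc (-0.04) and Hnrnpul2 (-0.17) had log2 fold changes close to or under their SE, and their groups overlapped.

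Snrp proteins, the shared and particle-specific components of the snRNPs, had a median log2 fold change of 0.17, with 11 of 12 above 0 and 0 past the limma test. Without vehicle 2 the median was 0.09, beside 0.10 for the hnRNPs, and without vehicle 3 it was 0.27. They also had the widest spread between vehicle libraries. The mean deviation of the class from its genes' means was -0.16, -0.25 and 0.17 in vehicle 1, 2 and 3, against 0.12, 0.04 and 0.08 in resveratrol 1, 2 and 3. Vehicle 3 was thus above every resveratrol library. With vehicle 1 and 2 left out the median of the class was -0.06.

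Snrpc had 17.8, 17.4 and 24.5 FPKM after vehicle, and 25.1, 25.0 and 29.6 FPKM after resveratrol (a log2 fold change of 0.42 ± 0.15, SE, n = 3 each). Vehicle 3 lay far above the other vehicle libraries and just below the lowest resveratrol library, and the fold change was 0.11 with vehicle 1 and 2 left out. Snrpa, which binds a stem-loop of U1 RNA, was 0.30 ± 0.16, and the U2 proteins Snrpa1 and Snrpb2 were 0.04 ± 0.12 and 0.01 ± 0.16. In the Sm ring, Snrpd3 had 25.8, 22.5 and 23.6 FPKM after vehicle, and 34.0, 28.2 and 24.6 FPKM after resveratrol (0.26 ± 0.13), where vehicle 1 was above resveratrol 3 alone, and the fold change was 0.14 without resveratrol 1. Snrpd2 had 80.1, 63.7 and 104 FPKM against 91.9, 86.5 and 91.7 FPKM, with vehicle libraries on both sides of all resveratrol libraries. Snrpe had 42.3, 38.1 and 53.1 FPKM against 37.4, 41.4 and 41.8 FPKM and was the sole member of the class below 0 (-0.13 ± 0.13). Snrpd1 (0.27 ± 0.14), Snrpg (0.14 ± 0.11) and Snrpf (0.04 ± 0.16) completed the ring, and 85.4% of the exon bases of Snrpf are covered by genes on the opposite strand.

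Snrpn, an imprinted gene expressed from the paternal allele, encodes a neuronal relative of the Sm protein of Snrpb and was the most abundant transcript of the 66. It had 352, 317 and 419 FPKM after vehicle, and 421, 403 and 405 FPKM after resveratrol (a log2 fold change of 0.18 ± 0.13, SE, n = 3 each). The resveratrol libraries lay close together, while vehicle 3 stood among them and vehicle 1 and 2 below. Snrpb had 34.0, 37.8 and 49.9 FPKM against 44.2, 42.6 and 55.7 FPKM. In the annotation (chromosome 7, 59982495 to 60140219) 27.3% of the exon bases of Snrpn are shared with Snurf or Gm38393 on the same strand.

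The U2 proteins of SF3a and SF3b, which position the branch point, are needed at every major intron. Of 9 genes 6 were above 0, with a median of 0.08, and 0 passed the limma test. Sf3b1, the large scaffold that clamps the branch helix, had 70.4, 66.2 and 72.6 FPKM after vehicle, and 78.4, 75.0 and 67.6 FPKM after resveratrol. Sf3b2 had 65.5, 71.4 and 64.9 FPKM against 65.4, 70.9 and 70.9 FPKM. Both overlapped, with log2 fold changes of 0.08 ± 0.10 and 0.04 ± 0.10. Sf3a3 had the largest value of the class (0.30 ± 0.14), with 15.7, 15.8 and 22.4 FPKM against 23.0, 21.2 and 21.4 FPKM. Vehicle 3 stood among the resveratrol libraries, and the value was -0.03 with vehicle 1 and 2 left out.

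Sf3b5, a small subunit, had 26.8, 24.1 and 40.1 FPKM after vehicle, and 30.8, 33.8 and 42.8 FPKM after resveratrol, where replicate 3 of each group was the highest. Sf3b4 had 5.55, 5.45 and 5.77 FPKM against 6.01, 6.11 and 6.20 FPKM. Its groups did not overlap although its log2 fold change was 0.12 ± 0.11, and 43.6% of its 50-base words also occur in another gene, Gm7935. Sf3b6, which touches the branch region itself, was the lowest of the class at -0.06 ± 0.12, with 37.7, 34.3 and 42.7 FPKM against 40.3, 36.3 and 33.2 FPKM. Sf3b3 (0.08), Sf3a1 (-0.02) and Sf3a2 (-0.03) also overlapped between groups.

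Among the Prpf factors and Ddx23, 11 of 14 genes were above 0, the median was 0.05 and 0 passed the limma test. Ddx23 (chromosome 15, 98645134 to 98662894) had the smallest limma p of all 66 genes, 0.00616, which ranked 31 among all genes tested. It had 19.1, 18.3 and 20.4 FPKM after vehicle, and 25.1, 23.6 and 25.1 FPKM after resveratrol (a log2 fold change of 0.35 ± 0.10, SE, n = 3 each). The groups were apart by more than the spread within either, with an SD of 1.06 FPKM after vehicle, and 0.841 FPKM after resveratrol. Its fold change stayed between 0.26 and 0.39 over all alternatives, and none of its 50-base words occurs in another gene.

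The groups overlapped in the other 13 genes of this class. Prpf8, the core protein of U5 at the catalytic centre, had 53.8, 57.9 and 39.6 FPKM after vehicle, and 51.8, 49.4 and 52.9 FPKM after resveratrol, with vehicle 3 the lowest of all. Prpf4b, a kinase of the assembling spliceosome, had 36.8, 33.5 and 37.2 FPKM against 40.5, 37.8 and 34.5 FPKM. Prpf19, the ubiquitin ligase that gives its name to the activating complex, had 23.0, 22.0 and 26.9 FPKM against 26.8, 25.3 and 30.5 FPKM (0.20 ± 0.12), with vehicle 3 above 2 of the resveratrol libraries. The U4/U6 proteins Prpf3 (-0.15 ± 0.12), Prpf4 (0.05 ± 0.11) and Prpf31 (0.13 ± 0.12) lay on both sides of 0. Prpf6 (0.05), which bridges U5 with U4/U6, Prpf18 (0.03), which acts in the second step, and Prpf39 (-0.01), a U1-associated factor, were near 0. Prpf38a (0.19 ± 0.14) and Prpf38b (0.16 ± 0.13) overlapped between groups. Prpf40b had 10.8, 12.1 and 11.3 FPKM against 10.1, 12.8 and 12.6 FPKM.

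The balance within pairs of related genes was compared through the ratio of their FPKM in each library. Snrpn exceeded Snrpb by 9.04 ± 1.13 times in vehicle and 8.75 ± 1.28 times in resveratrol (SD, n = 3 each). The ratio of Hnrnpl to Hnrnpll was 3.33 ± 0.138 and 3.19 ± 0.629, and that of Srsf1 to Srsf9 was 1.97 ± 0.103 and 2.05 ± 0.0973. Hnrnph1 over Hnrnph2 (1.19 and 1.17) and Hnrnpa2b1 over Hnrnpa1 (1.13 and 1.22) were close to even in both groups. By an exact two-sided permutation test of the log ratios, p lay between 0.3 and 0.9 over these 5 pairs, and the Benjamini-Hochberg value, adjusted over the 6 pairs tested, was 0.9 for each. The smallest p that 3 against 3 libraries allow is 0.1.

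Single libraries moved the classes in different directions. Vehicle 2 was the lowest library for 31 of the 66 genes, and for 3264 of the 13574 genes tested. Resveratrol 1 was the highest for 33 of the 66 genes, and for 2696 of all. Vehicle 3 was the highest of all libraries for the Snrp class (mean deviation 0.17) but the lowest of all libraries for the hnRNPs (-0.09). The hnRNPs were highest in resveratrol 1 (0.14), followed by resveratrol 2 (0.02), vehicle 2 (0.0075), vehicle 1 (-0.03) and resveratrol 3 (-0.04). In the Prpf class the resveratrol libraries lay at 0.06, 0.04 and -0.0015 and the vehicle libraries at -0.02, -0.07 and -0.01.

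**Figure D4:**
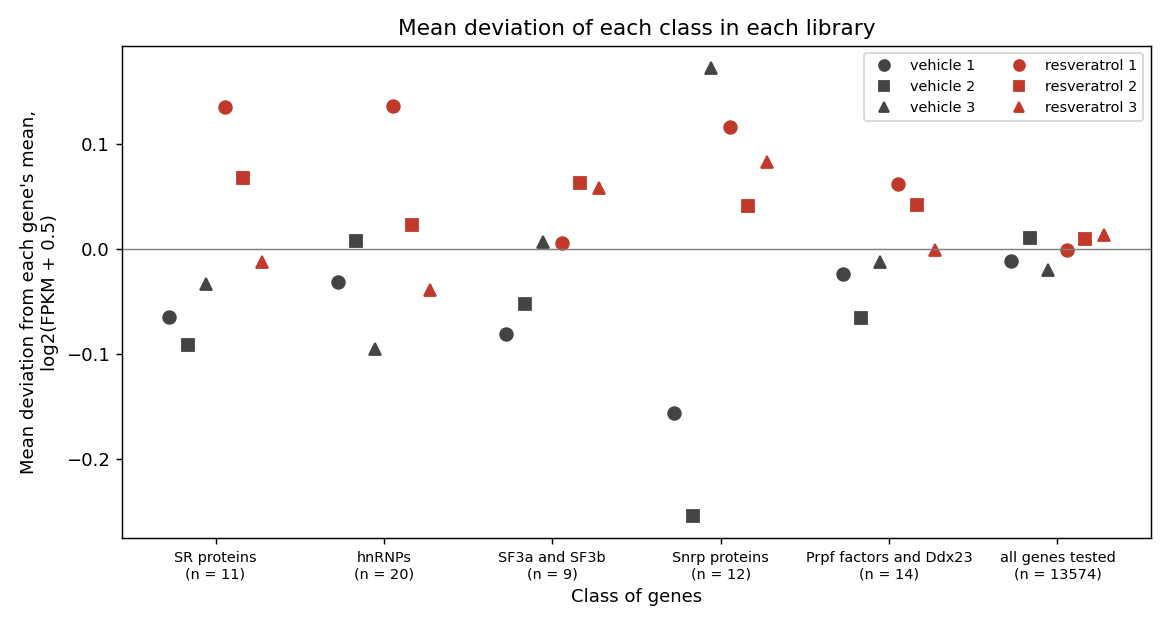
Mean deviation of each class from its genes' means in each library, on the log2(FPKM + 0.5) scale, with all genes tested at the right; colours give the group and marker shapes the replicate number. Vehicle 3 is the highest library for Snrp proteins (0.17) and the lowest for hnRNPs (-0.09), while the means over all genes lie between -0.02 and 0.01.

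These library shifts went with transcript length and base composition among the 66 genes as among all genes. Spearman's correlation of a gene's deviation with its transcript length over the 66 genes was 0.323, 0.396 and -0.359 in vehicle 1, 2 and 3, and with GC content it was -0.449 in resveratrol 1 and 0.501 in resveratrol 3. These are descriptions across genes that share libraries. The shortest 22 genes (442 to 1670 bases) had a median log2 fold change of 0.14, the middle 22 one of 0.10 and the longest 22 (2939 to 7844 bases) one of 0.06. In the shortest, vehicle 1, 2 and 3 had mean deviations of -0.10, -0.14 and 0.05, and in the longest -0.01, -0.02 and -0.06. After a correction of each library for length and GC content, chosen after seeing the data, 52 of the 66 genes were above 0, the median was 0.10 and 0 passed.

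Of the splicing genes outside these families, 7 lists were described in the same way, without the members above. The U4/U6.U5 particle, the minor spliceosome and the Lsm ring (25 measured genes) had 23 above 0 and a median log2 fold change of 0.13. Sart1, which recruits U4/U6.U5, had 6.30 ± 0.273 FPKM after vehicle, and 8.18 ± 0.307 FPKM after resveratrol (SD, n = 3 each), and Snrnp48 of the minor spliceosome differed by 0.27 ± 0.11 (SE). Genes of U1, U2 and branch point recognition (17 genes) had 11 above 0 and a median of 0.13. In that list Snrnp70, the protein that docks on U1 beside Snrpc, had 46.5 ± 6.12 FPKM after vehicle, and 61.4 ± 6.28 FPKM after resveratrol (a log2 fold change of 0.40 ± 0.13, SE). U2af2, which reads the pyrimidine tract, differed by 0.32 ± 0.11. The groups did not overlap in these 4 genes, which were picked for the smallest p of their lists. Over the whole lists, 3 of the 17 U1 and U2 genes (17.6%) and 3 of the 25 U4/U6.U5 genes (12%) had resveratrol higher without overlap. The share among all genes was 4.28%. In limma 0 genes of either list passed. At an unadjusted limma p under 0.05 were 2 of the U1 and U2 list and 3 of the U4/U6.U5 list, a share of 2.42% among all genes.

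The Prp19 and catalytic complexes with their helicases (28 genes) had 21 above 0 and a median of 0.06, with Snw1 (0.22 ± 0.13) and Xab2 (0.20 ± 0.13) first by p. The kinases and coactivators of SR proteins (28 genes) had 18 above 0 and a median of 0.05, with Clk3, a kinase that phosphorylates SR proteins, at 0.25 ± 0.11 and Tra2a, a partner of SR proteins on exonic enhancers, at 0.19 ± 0.11. Neuronal and other tissue-specific regulators (44 of 47 listed genes) had 23 above 0 and a median of 0.02, with Ewsr1 at 0.26 ± 0.11 and Fubp1 at 0.24 ± 0.10. The exon junction complex and nonsense-mediated decay (18 genes) had 9 above 0 and a median of 0.02, with Rnps1 (0.20 ± 0.11) and Upf3a (0.24 ± 0.15) first by p. Genes of snRNP assembly by the SMN complex (16 genes) had 11 above 0 and a median of 0.03, with Prmt5, which methylates Sm proteins, at 0.12 ± 0.09 and Snupn at 0.16 ± 0.14. In limma 0 genes of these 5 lists passed, with 3 at an unadjusted p under 0.05 (Clk3, Ewsr1 and Fubp1), or 2.24% of their 134 genes, near the 2.42% of all genes. Of the genes named, Clk3, Tra2a, Ewsr1, Fubp1 and Prmt5 were higher in resveratrol without overlap. Over the whole lists, in the order given, there were 1, 2, 2, 0 and 1 such genes. These were 3.57%, 7.14%, 4.55%, 0% and 6.25% of each list, beside 4.28% of all genes.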

How the data were processed

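Per the labels' protocols, ribosomal RNA was depleted and stranded total RNA libraries were made. They came from the right cortex of 6 mice, 3 in each group, taken as separate animals from the stated number per group. STAR, Cufflinks, Cuffdiff and GRCm38 are named in the submitters' processing notes, while versions, annotation and use of strand were not given in the sources used here. Deposited by the authors were 1 FPKM value per gene and library, and, per the file headers, a log2 fold change with its p-value and q-value. The depth is unknown, so no counting error can be given.

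FPKM were transformed to log2(FPKM + 0.5), a scale that understates changes of low genes. Genes averaging 0.5 FPKM or more were fitted with limma 3.58.1 in R 4.3.3, vehicle against resveratrol, with adjusted p-values over all 13574 genes. The procedure was tested on simulated data with planted changes larger than any of the members here and with independent noise for each gene. That test therefore does not show how well changes as small as those of the members are found. Rows holding failed values (2) were left out, and 23 rows whose names had become dates were kept unnamed. Transcript length, exon overlap and shared 50-base words came from GENCODE M21 (GRCm38), where 96.1% of rows matched by name. The coordinates in the deposited table did not match that build and were not used.

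The members, lists and tests were chosen with earlier results of these data known. Values in every library are given for Ddx23, for genes whose groups do not overlap, for the 2 most abundant and the 2 with the smallest p of each class, for the largest change in each direction, and for 6 pairs of relatives. Of each pathway list the 2 genes with the smallest p are named. Alternatives were other pseudocounts (0.1 and 1), array weights, quantile normalization, median centring, a robust empirical Bayes step, no filter or one at 2 FPKM, a replicate block and each library left out. A length and GC correction, and leaving out vehicle 1 and 2 together, were added after seeing the data. Of the 66 genes, 1 stays in all counts, medians and sums, and its own result is not reported here.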

Additional observations from a re-analysis of the deposited data

How the results depend on the processing

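In limma 0 of the 66 genes passed under every alternative except array weights, where 26 did among 4927 of all genes and the weights had not converged. Over 17 alternatives the 37 genes chosen for values per library gave 629 fold changes, of which 35 changed sign, and 18 genes never did. All log2 fold changes that follow are near 0 or rest on few libraries, and the cause was not tested. Median centring gave Hnrnpu -0.018. It also left 3 members at an unadjusted p under 0.05, where the main fit had 6. Quantile normalization gave Hnrnpl -0.012, Hnrnpu -0.065, Sf3b2 -0.014 and a median of 0.032 for SF3a and SF3b. Array weights gave Hnrnpll -0.032, Hnrnpu -0.11, Prpf8 -0.10, Srsf12 0.023 and a median of 0.096 for Prpf factors with Ddx23. The length and GC correction gave Hnrnpl -0.014, Srsf12 0.012, Srsf9 -0.018 and a median of 0.12 for the same class. With vehicle 1 and 2 left out, 3 genes in all were called, the median was 0.15 for hnRNPs and -0.065 for Snrp proteins, and Hnrnpd was 0.24, Hnrnpk -0.012, Sf3a3 -0.032, Sf3b5 -0.17, Snrpb -0.082, Snrpd2 -0.21, Snrpn -0.033 and Srsf3 -0.018. With 1 library left out at a time, between 1 and 7 genes in all were called. The median then lay between 0.065 and 0.12 for the members, 0.038 and 0.084 for SF3a and SF3b, 0.046 and 0.085 for Prpf factors with Ddx23, 0.0945 and 0.27 for Snrp proteins, 0.042 and 0.13 for hnRNPs, and 0.064 and 0.15 for SR proteins. The same omissions gave ranges of -0.043 to 0.20 for Hnrnpa1, -0.027 to 0.067 for Hnrnpl, -0.0079 to 0.18 for Hnrnpll, -0.10 to 0.067 for Hnrnpu and -0.015 to 0.15 for Prpf40b. They gave -0.12 to 0.15 for Prpf8, -0.13 to 0.023 for Sf3b6, -0.021 to 0.33 for Snrpd2, -0.24 to 0.0013 for Snrpe and -0.11 to 0.13 for Srsf12. Without resveratrol 1, Hnrnpa2b1 was 0.10, Hnrnpf 0.17 and Srsf10 0.11, without vehicle 1 Srsf2 was 0.18, and without vehicle 2 Snrpn was 0.09. Without resveratrol 3, Prpf19 was 0.12, Sf3b5 0.12 and Snrpb 0.11. No label says that replicate numbers pair the mice, and the deviations of same-numbered libraries correlated at 0.0383, 0.148 and 0.184, while vehicle 1 correlated best with resveratrol 2 (0.262). A replicate block left the median at 0.08 and 0 members called, with 10 (15.2%, beside 4.75% of all genes) at an unadjusted p under 0.05. With 3 libraries a group and no counts, the median SE of 0.12 sets what could be resolved in these genes.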
